A study of Mus musculus with 10 samples.

Results

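The genes described here are those that copy DNA in S phase and those that divide the chromosomes in mitosis, measured in tumours of the mouse colon. A list of 44 genes was taken, 23 of S phase and 21 of mitosis. Of these, 43 were measured among the 18193 genes of the array, each by 1 probe set (a group of probes for 1 transcript), the brightest over the 10 arrays among those annotated to a single gene. The mitotic cyclin gene Ccnb1 was not matched to such a probe set and is not analysed here, which leaves 20 mitotic genes.

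Tumours were compared between mice labelled wild-type (WT) and mice labelled vil-Cre-Bcl9-/-/Bcl9l-/- (KO), in which Cre driven by the villin promoter, active in gut epithelium, removes Bcl9 and Bcl9l, the adaptor proteins that link beta-catenin to Pygopus in Wnt signalling. All mice were on a mixed 129SvEv/C57BL/6/DBA/2 background, and all, the controls too, had received the carcinogen dimethylhydrazine once at 44 mg/kg when 6 to 8 weeks old. Dextran sulfate sodium, an agent that damages the lining of the colon, followed at 2% in drinking water over 7 days. The 5 KO tumours came from 3 mice (tumours 2 and 6 of mouse 02, tumours 9 and 11 of mouse 04 and tumour 7 of mouse 99), and the 5 WT tumours came from 2 mice (tumours 1, 3, 12 and 13 of mouse 72 and tumour 8 of mouse 82). Tissue was cut out of 14 µm frozen sections with a laser, and 30 ng of RNA was amplified for each array. The labels' extraction text speaks of pooling the dissected material of a mouse, while several arrays are listed for single mice; tumours were treated here as the labels list them, with the mouse as a random block in the fit.

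A cell that enters S phase has already loaded the Mcm helicase onto replication origins with Cdc6 and Cdt1, and then fires those origins with Cdc45 and the GINS complex. Polymerase alpha and primase start each strand, the Rfc clamp loader places the PCNA ring that holds the polymerase on DNA, and ribonucleotide reductase, thymidylate synthase and thymidine kinase supply the nucleotides. In mitosis, cyclin B with Cdk1 and the Plk1 and Aurora kinases drive chromosome condensation and spindle assembly, the Bub and Ttk checkpoint holds anaphase back, and Cdc20 with Ube2c starts the destruction of the mitotic cyclins. Genes of S phase are known targets of E2F factors, and many mitotic genes are known targets of the DREAM, B-Myb and FoxM1 complexes through CCAAT boxes and the cell cycle genes homology region (CHR). In the colon, this programme runs in the lower part of the crypt and in tumours, as well as in any dividing stromal or immune cell.

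E2F-type letters were found in promoter windows of S phase genes and in none of the mitotic genes, while CHR and CCAAT letters were found in both groups, in a larger share of the mitotic windows. Promoter windows reach from 250 bases before to 50 bases after the start of transcription (300 bases, RefSeq, build GRCm38.p6) and were matched for 36 of the 43 genes: 24 windows of 20 S phase genes and 16 windows of 16 mitotic genes. The letters TTCCCGC or TTTGGCG, forms of the E2F site, stood on either strand in 14 of 24 S phase windows (58.3%) and in 0 of 16 mitotic windows, against 1264 of the 12606 windows of the genes tested and 5.99% of all 32851 windows in the table. The CHR letters TTTGAA or TTCGAA stood in 5 of 24 S phase windows (20.8%) and in 13 of 16 mitotic windows (81.2%), against 14.1% of the windows of genes tested and 19.2% of all windows. CCAAT was found in 14 of 24 S phase windows (58.3%) and in 14 of 16 mitotic windows (87.5%), against 36.9% and 37.4%. All 13 mitotic windows with a CHR also held CCAAT, a combination found in 4 of 24 S phase windows and in 5.56% of the windows of genes tested. None of these motifs stood in 5 S phase and 2 mitotic windows. A match is a run of letters, and binding was not measured here.

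**Figure D1:**
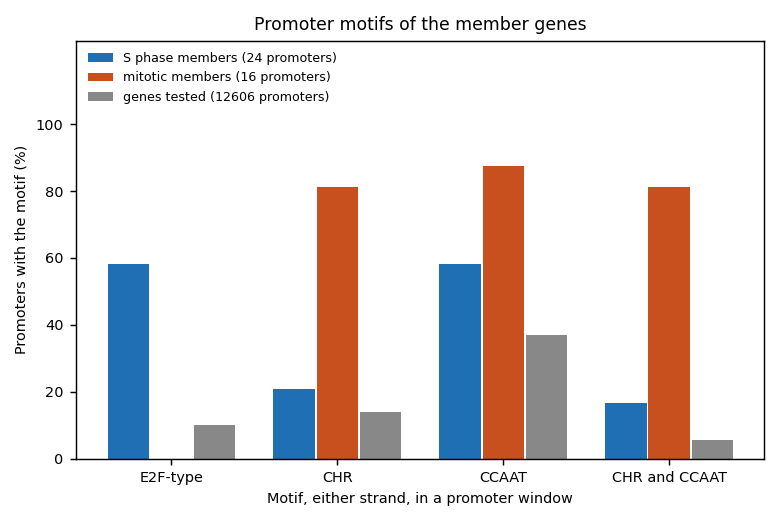
Share of promoter windows (%, vertical axis) that hold an E2F-type motif, a CHR, a CCAAT box or both of the last (horizontal axis), for the 24 windows of S phase genes, the 16 windows of mitotic genes and the 12606 windows of the genes tested. E2F-type letters stood in 58.3% of S phase windows and 0 of 16 mitotic windows, and a CHR in 20.8% and 81.2%.

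Windows of 3 S phase genes are printed to show the E2F-type letters: Mcm6 and Prim1, which had the smallest p-values of the S phase genes with a window, and Cdc6, chosen after its values were seen because it differed most, among S phase genes, between the tumours of mouse 02. They lie at chr1:128359656-128359955 on the minus strand (Mcm6), chr10:128014965-128015264 on the plus strand (Prim1) and chr11:98907901-98908200 on the plus strand (Cdc6). Each is written 5′ to 3′ along the gene, and capitals mark the E2F-type and CCAAT letters, ATTGG and GCGGGAA being the same motifs on the other strand.
Mcm6: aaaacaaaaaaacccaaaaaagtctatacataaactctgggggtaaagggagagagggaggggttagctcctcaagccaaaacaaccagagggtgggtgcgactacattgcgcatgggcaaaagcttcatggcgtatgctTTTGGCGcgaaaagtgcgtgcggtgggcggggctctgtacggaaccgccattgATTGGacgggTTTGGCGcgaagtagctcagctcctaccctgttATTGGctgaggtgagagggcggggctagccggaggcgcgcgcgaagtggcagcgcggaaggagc
Prim1: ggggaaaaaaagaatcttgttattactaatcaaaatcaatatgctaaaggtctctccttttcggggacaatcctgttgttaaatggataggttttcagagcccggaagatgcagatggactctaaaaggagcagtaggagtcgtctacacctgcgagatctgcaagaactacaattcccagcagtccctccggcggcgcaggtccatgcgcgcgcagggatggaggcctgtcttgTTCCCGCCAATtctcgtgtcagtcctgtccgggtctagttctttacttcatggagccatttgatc
Cdc6: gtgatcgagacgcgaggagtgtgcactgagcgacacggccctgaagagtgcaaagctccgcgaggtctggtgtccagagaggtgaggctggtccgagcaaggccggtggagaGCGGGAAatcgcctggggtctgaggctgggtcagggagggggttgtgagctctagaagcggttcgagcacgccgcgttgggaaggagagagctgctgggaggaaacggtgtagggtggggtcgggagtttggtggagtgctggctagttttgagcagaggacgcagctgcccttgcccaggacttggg
Counted from 1 at the first base of the window, Mcm6 had E2F-type letters at 141 and 204 and CCAAT letters at 194 and 237. Prim1 had an E2F-type match at 236 whose last base is the first C of the CCAAT box at 242. Cdc6 had an E2F-type match at 113 and no CCAAT.

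The mitotic windows are those of Nusap1 and Plk1, which had the smallest p-values of the mitotic genes with a window, and of Ccnb2, chosen after its values were seen as the mitotic gene that differed most between the tumours of mouse 02. They lie at chr2:119618048-119618347 on the plus strand (Nusap1), chr7:122159185-122159484 on the plus strand (Plk1) and chr9:70421505-70421804 on the minus strand (Ccnb2), with CHR and CCAAT letters in capitals.
Nusap1: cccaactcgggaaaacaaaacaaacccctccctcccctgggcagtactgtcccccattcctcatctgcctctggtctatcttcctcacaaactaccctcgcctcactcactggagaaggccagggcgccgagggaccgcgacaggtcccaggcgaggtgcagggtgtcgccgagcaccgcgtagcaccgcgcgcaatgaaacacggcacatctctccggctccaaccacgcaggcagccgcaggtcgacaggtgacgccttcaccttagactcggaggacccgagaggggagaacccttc
Plk1: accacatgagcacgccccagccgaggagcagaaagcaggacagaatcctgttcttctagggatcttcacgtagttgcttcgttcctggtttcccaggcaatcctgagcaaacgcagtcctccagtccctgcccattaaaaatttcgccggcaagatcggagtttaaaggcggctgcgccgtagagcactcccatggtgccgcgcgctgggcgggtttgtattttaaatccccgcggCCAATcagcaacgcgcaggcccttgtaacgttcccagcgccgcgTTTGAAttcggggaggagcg
Ccnb2: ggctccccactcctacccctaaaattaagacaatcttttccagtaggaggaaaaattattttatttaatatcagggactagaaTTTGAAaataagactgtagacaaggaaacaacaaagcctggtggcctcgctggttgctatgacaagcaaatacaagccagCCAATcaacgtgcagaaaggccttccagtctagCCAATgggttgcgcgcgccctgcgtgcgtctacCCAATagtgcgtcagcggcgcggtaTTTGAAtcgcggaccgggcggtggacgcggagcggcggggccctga
Plk1 had a CCAAT box at 237 and a CHR at 281, and Ccnb2 had CCAAT boxes at 164, 197 and 230 and CHR letters at 84 and 255. The Nusap1 window held none of the motifs.

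All values below are log2 signals as the authors normalised them, so that a difference of 1 is a doubling, and levels are compared between tumours for 1 probe set and never between genes. The array medians lay between 6.43 and 6.50. The targeted genes were not lower in the tumours labelled KO: Bcl9 ran from 8.35 to 8.84 in KO and 8.07 to 8.53 in WT tumours, and Bcl9l from 8.19 to 8.64 and 8.04 to 8.39 (adjusted p = 0.410 and 0.620). The labels do not say which part of either gene was removed, so these probe sets do not check the genotypes. Of the colon epithelium markers, 0 of 11 passed the test between KO and WT tumours, against 7.09% of all genes tested. At an unadjusted p under 0.05 there were 2 of 11, against 22.4%. Epcam, the epithelial adhesion molecule, lay between 13.47 and 13.72 in the 10 tumours. The mean over the 11 markers varied more, from 11.45 to 11.82 in KO and from 10.77 to 12.07 in WT tumours. WT tumour 1 was the lowest tumour for 10 of the 11. T cell markers were higher in KO tumours for 4 of 6 genes tested and B and plasma cell markers for 4 of 4, against 4.16% of all genes tested. A further 5 of 11 listed T cell and 5 of 9 listed B and plasma cell markers were not tested. They had no matched probe set or a mean below log2 5.82. That mean is over all 10 tumours, so a marker could pass through its KO values, and these counts are not independent support for a difference. The mean over the tested T cell markers was 6.64 to 7.23 in KO against 5.55 to 6.12 in WT tumours. For B and plasma cells it was 7.99 to 8.62 against 5.80 to 6.59. None of the 6 macrophage, 3 neutrophil, 7 fibroblast, 7 smooth muscle and 7 endothelial markers tested passed, against 7.09% of all genes tested. Estimates were lower in KO for 6 of 7 fibroblast (median -0.37) and 5 of 7 endothelial markers (median -0.51). They were lower for 4 of 7 smooth muscle, 2 of 3 neutrophil and 1 of 6 macrophage markers, and for 5664 of the 12250 genes tested. Lymphocytes also divide, and their part in the values below was not tested.

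Between KO and WT tumours, no S phase or mitotic gene passed the test. With limma's moderated test, the mouse as a random block and Benjamini-Hochberg adjustment over 12250 genes, 0 of 43 genes had an adjusted p under 0.05, against 7.09% of all genes tested (4.16% higher and 2.93% lower in KO), and 0 of 43 had an unadjusted p under 0.05, against 22.4%. The smallest adjusted p among the 43 genes was 0.422, and the groups overlapped for every one of them, while 9.12% of all genes tested had no overlap. The estimated difference was positive, that is higher in KO, for 32 of 43 genes (19 of 23 of S phase and 13 of 20 of mitosis) against 53.8% of all genes tested. When single tumours were left out in turn, the count of positive estimates ran from 17 (without WT tumour 8) to 41 of 43 genes. The median difference was 0.08 over the 43 genes and 0.03 over all genes.

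The 95% intervals of the differences show which changes these tumours leave room for. All 43 intervals included 0, and 39 of 43 lay wholly between a halving and a doubling (21 of 23 S phase genes and 18 of 20 mitotic genes). The lowest bound of any interval was -0.73 and the highest was 1.27. The mean over the 23 S phase genes was 9.39 ± 0.45 (SD, n = 5) in KO and 9.29 ± 0.26 (SD, n = 5) in WT tumours, a difference of 0.09, and that over the 20 mitotic genes was 9.02 ± 0.40 and 8.94 ± 0.41, a difference of 0.08. Both differences were below the SD within a group, and over the leaving out of each tumour in turn they ran from 0.0057 (without KO tumour 7) to 0.28 (without KO tumour 9) for S phase and from -0.089 (without WT tumour 8) to 0.23 (without KO tumour 9) for mitosis. Averaging the tumours of a mouse first gave 0.28 for S phase and 0.38 for mitosis. WT tumour 8, low in both, then counts as 1 of 2 WT mice. KO tumour 7, high in both, counts as 1 of 3 KO mice.

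The last number of a tumour's label, which falls into a lower range (191 to 229, KO tumour 7 and WT tumours 3, 8, 12 and 13) and an upper one (254 to 258, the other tumours), was examined as a possible batch. The labels call it a unique ID, and the sample titles use it as the number of the tumour. Within the lower range, KO minus WT was 0.44 for the S phase mean and 0.40 for the mitotic mean, with 1 KO tumour, and within the upper range it was 0.03 and 0.09, with 1 WT tumour. With the range as a covariate the differences were 0.23 and 0.25, and still 0 of 43 genes passed.

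**Figure D2:**
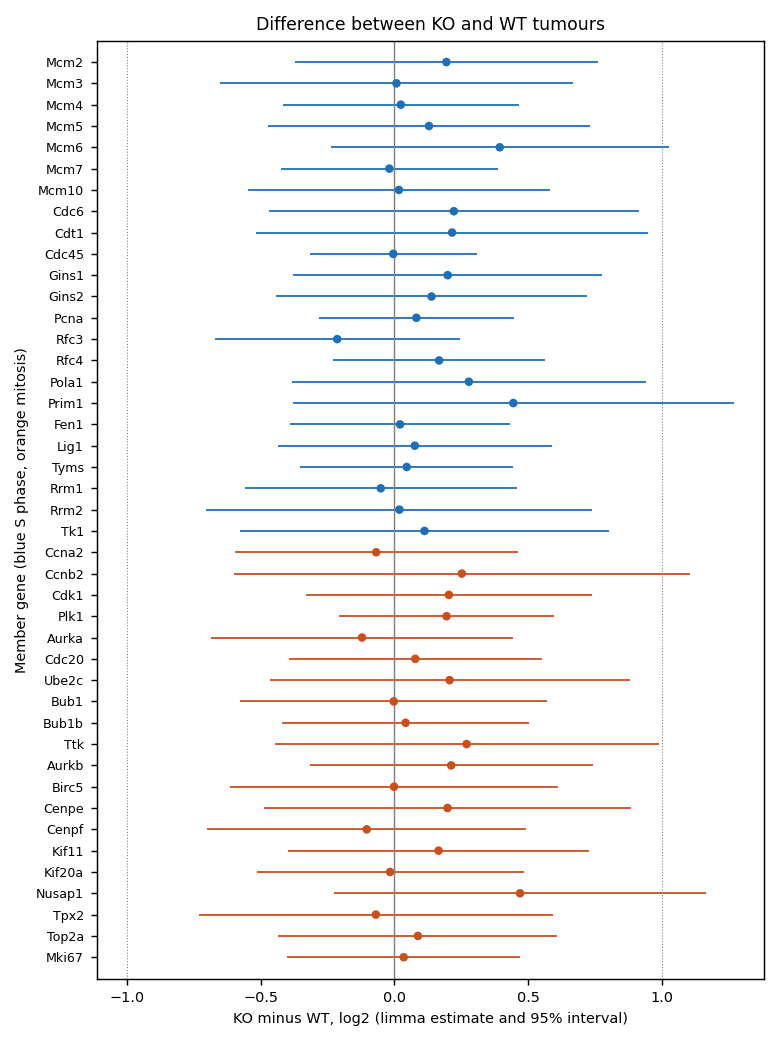
KO minus WT difference of each of the 43 genes on the log2 scale (horizontal axis; point, limma estimate; line, its 95% interval), with S phase genes in blue and mitotic genes in orange, and dotted lines at a halving and a doubling. Every interval includes 0, and 39 of 43 stay between the dotted lines.

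Among the licensing and helicase genes, 10 of 12 had a positive estimate, their median difference was 0.13 and none passed. Mcm6, a subunit of the helicase ring, had the smallest p of the S phase genes. Its signal was 11.70, 11.49, 11.40, 10.07 and 10.99 in KO tumours 2, 6, 7, 9 and 11, in that order, and 10.61, 11.13, 10.52, 10.77 and 10.72 in WT tumours 1, 3, 8, 12 and 13, and the order of tumours is the same for all genes below. Among these KO tumours, 3 exceeded every WT tumour and tumour 9 was below every one, so the groups overlapped at both ends. The means were 11.13 ± 0.65 in KO against 10.75 ± 0.24 in WT (SD, n = 5 each), with a difference of 0.39 ± 0.29 (SE; 95% interval -0.24 to 1.03; adjusted p = 0.462). Without mouse 04, which gave KO tumours 9 and 11, the difference was 0.78 with an adjusted p of 0.0325, and without KO tumour 9 alone it was 0.65 with an adjusted p of 0.0514. Without mouse 02 it was 0.09.

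The other licensing genes had smaller estimates. Mcm2, a second helicase subunit, had 8.34, 7.94, 8.59, 7.16 and 7.93 in KO and 8.03, 8.12, 7.55, 7.56 and 7.81 in WT tumours, with a difference of 0.19 ± 0.26 (SE; 95% interval -0.37 to 0.76; adjusted p = 0.707). The lowest and the highest value of Mcm2 were both in KO tumours, 9 and 7. Cdt1, which loads the helicase and is destroyed once S phase has begun, had 10.13, 9.65, 10.22, 8.43 and 9.63 in KO and 9.32, 9.98, 9.44, 9.14 and 9.13 in WT tumours. Its 3.45-fold range over the tumours lay entirely within the KO group, from tumour 9 to tumour 7, and it had a difference of 0.22 ± 0.33 (SE; 95% interval -0.52 to 0.95; adjusted p = 0.75). Cdc6, the partner of Cdt1, had 8.77, 7.87, 8.96, 7.48 and 8.31 in KO and 8.03, 8.70, 7.51, 8.08 and 8.10 in WT tumours. Its estimate was 0.22, and KO tumours 2 and 7 stood with WT tumour 3 at the top. In the rest of the helicase machinery (Mcm3, Mcm4, Mcm5, Mcm7, Mcm10, Cdc45, Gins1 and Gins2) the estimates ran from -0.02 to 0.20.

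Of the 7 genes of DNA synthesis, 6 had a positive estimate, and none passed. Prim1, the catalytic subunit of primase, varied more over the 10 tumours than any other of the 43 genes, by 2.18 or 4.53-fold. It had 9.68, 9.05, 9.21, 7.50 and 8.83 in KO and 8.00, 9.0, 8.21, 8.37 and 8.52 in WT tumours, so that its lowest and its highest signal were again both in KO tumours, 9 and 2. The means were 8.85 ± 0.82 in KO against 8.42 ± 0.38 in WT (SD, n = 5 each), with a difference of 0.44 ± 0.37 (SE; 95% interval -0.38 to 1.27; adjusted p = 0.529). Pola1, the catalytic subunit of the polymerase that works with primase, had 7.81, 7.36, 7.29, 6.34 and 7.41 in KO and 7.22, 7.38, 6.18, 7.15 and 7.02 in WT tumours. KO tumour 9 and WT tumour 8 lay apart from the other 8 tumours for this gene.

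The clamp loader subunits differed in the sign of their estimates. Rfc3 had 8.06, 8.01, 8.01, 7.35 and 8.05 in KO and 8.29, 8.31, 8.29, 7.47 and 8.17 in WT tumours, with a difference of -0.21 ± 0.21 (SE; 95% interval -0.67 to 0.24; adjusted p = 0.594). The other 4 KO tumours lay between 8.01 and 8.06, and 1 tumour of each group, KO 9 and WT 12, stood below the rest. Rfc4 had 8.81, 8.68, 8.83, 7.96 and 8.61 in KO and 8.48, 8.72, 8.30, 8.30 and 8.30 in WT tumours, with a difference of 0.17 ± 0.18 (SE; 95% interval -0.23 to 0.56; adjusted p = 0.636). Pcna, the sliding clamp itself, had 12.01, 11.86, 12.11, 11.45 and 12 in KO and 12.02, 12.04, 11.48, 11.61 and 11.95 in WT tumours, with a difference of 0.08 ± 0.16 (SE; 95% interval -0.28 to 0.45; adjusted p = 0.815). Fen1 and Lig1, which trim and seal the fragments of the lagging strand, had estimates of 0.02 and 0.08. For Tyms, Rrm1, Rrm2 and Tk1, the enzymes of nucleotide supply, estimates ran from -0.05 to 0.11. Rrm2, the regulated subunit of ribonucleotide reductase, had 10.84, 10.30, 10.84, 9.66 and 10.65 in KO and 10.25, 11.28, 9.63, 10.59 and 10.61 in WT tumours, with both its lowest and its highest signal in the WT group.

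None of the mitotic genes passed between the groups either. Nusap1, a protein that binds and bundles spindle microtubules, had the smallest p of the 43 genes. It had 8.46, 9.15, 8.87, 8.06 and 8.75 in KO and 8.01, 8.64, 7.21, 8.55 and 8.73 in WT tumours, and WT tumour 8 was the lowest of all. The means were 8.66 ± 0.42 in KO against 8.23 ± 0.63 in WT (SD, n = 5 each), with a difference of 0.47 ± 0.31 (SE; 95% interval -0.23 to 1.17; adjusted p = 0.422).

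Among the cyclins, kinases and destruction factors, 5 of 7 had a positive estimate and none passed. Plk1, the polo-like kinase, had 7.66, 8.06, 8.17, 7.85 and 8.09 in KO and 7.97, 8.29, 7.38, 7.67 and 7.63 in WT tumours, with a difference of 0.19 ± 0.18 (SE; 95% interval -0.21 to 0.60; adjusted p = 0.578). Cdk1, the kinase that starts mitosis, had 8.98, 8.94, 8.70, 8.24 and 9.13 in KO and 9.01, 8.96, 7.91, 8.71 and 8.49 in WT tumours, with a difference of 0.20 ± 0.24 (SE; 95% interval -0.33 to 0.74; adjusted p = 0.673). Ccnb2, a cyclin that activates Cdk1, had 9.03, 10.21, 10.18, 8.41 and 9.22 in KO and 8.83, 9.70, 8.55, 9.70 and 9.15 in WT tumours. KO tumours 6 and 7 were more than 1 log2 unit above KO tumours 2 and 9 for Ccnb2, and the means were 9.41 ± 0.78 in KO against 9.19 ± 0.51 in WT (SD, n = 5 each), with a difference of 0.25 ± 0.39 (SE; 95% interval -0.60 to 1.10; adjusted p = 0.749). Aurka, the spindle pole kinase, had 8.18, 8.50, 8.70, 7.69 and 8.51 in KO and 8.52, 8.89, 7.69, 8.59 and 8.63 in WT tumours and an estimate of -0.12. Ccna2, Cdc20 and Ube2c had estimates of -0.07, 0.08 and 0.21.

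In the spindle checkpoint and chromosomal passenger group, 4 of 7 estimates were positive. Aurkb, the kinase of the passenger complex that corrects spindle attachments, had 8.05, 8.36, 8.17, 7.21 and 8.05 in KO and 7.75, 8.16, 7.22, 7.84 and 7.91 in WT tumours, with a difference of 0.21 ± 0.24 (SE; 95% interval -0.32 to 0.74; adjusted p = 0.655). KO tumour 9 and WT tumour 8 were the lowest here also. Birc5, the survivin subunit of the same complex, was highest in WT tumour 12 at 9.82, and its estimate was close to 0. For Bub1, Bub1b, Ttk, Cenpe and Cenpf the estimates ran from -0.10 to 0.27. Mki67, which coats mitotic chromosomes and is the gene of the Ki-67 proliferation stain, had 11.83, 12.13, 12.13, 11.41 and 11.75 in KO and 11.43, 12.13, 11.50, 12.01 and 12.06 in WT tumours, with a difference of 0.03 ± 0.20 (SE; 95% interval -0.40 to 0.47; adjusted p = 0.941). Its estimate turned negative, to -0.059 at the lowest, when KO tumour 6 or 7, WT tumour 1 or 8, or mouse 02 was left out. Kif11, Kif20a, Tpx2 and Top2a had estimates from -0.07 to 0.16.

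The larger differences lay between tumours of the same group, and they were shared by nearly all of the genes. The median range of a gene over the 10 tumours was 1.34 for S phase and 1.20 for mitotic genes, against 0.82 for all genes tested. The narrowest range was 0.60 (1.51-fold, Cdc45) and the widest 2.18 (Prim1). The median SD within a group was 0.43 for the 43 genes and 0.24 for all genes. KO tumour 9 or WT tumour 8 was the lowest of the 10 tumours for 42 of 43 genes, the exception being Cdc45, lowest in WT tumour 12. Over all genes tested, KO tumour 9 was lowest for 11.8% and WT tumour 8 for 12%.

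KO tumour 9 was lowest for 19 of 23 S phase genes and 9 of 20 mitotic genes, and WT tumour 8 for 3 and 11. At the upper end stood KO tumour 7, highest for 10 S phase and 3 mitotic genes, and WT tumour 3, highest for 7 and 9. WT tumour 3 was above the 10-tumour mean of all 43 genes, and KO tumour 9 below it for all 43. The mean over the S phase genes ran from 8.63 in KO tumour 9 to 9.74 in KO tumour 7, a range of 1.11 or 2.16-fold. That over the mitotic genes ran from 8.28 in WT tumour 8 to 9.37 in WT tumour 3 and in KO tumour 7, a range of 2.12-fold. In dissected tissue of mixed cells, fewer dividing cells and less of these RNAs in each cell cannot be told apart.

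**Figure D3:**
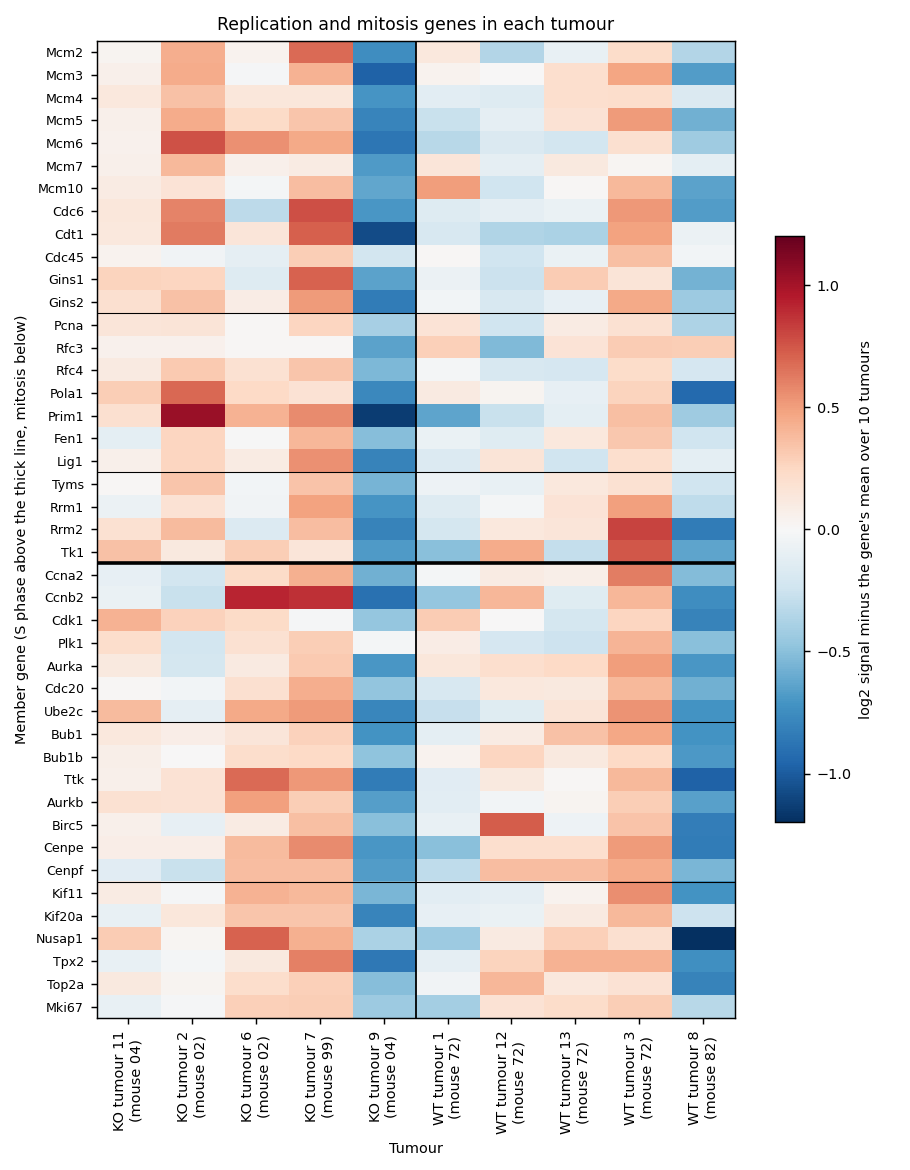
Log2 signal of each of the 43 genes (rows, S phase above the thick line and mitosis below) in each of the 10 tumours (columns), minus the gene's own mean over the tumours; red is above and blue below that mean. The columns of KO tumour 9 and WT tumour 8 are blue for nearly all genes, and those of KO tumour 7 and WT tumour 3 are red.

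Cell type markers also differed between these tumours. The mean over the 11 epithelial markers was 11.73 in KO tumour 9, which was the highest tumour for 4 of the 11, and 11.50 in WT tumour 8, with 10.77 to 12.07 over the 10 tumours. KO tumour 9 was below the 10-tumour mean of all 7 fibroblast, all 7 smooth muscle and all 7 endothelial markers. WT tumour 8 was above that mean for 6 of 7 fibroblast, 4 of 7 smooth muscle and 6 of 7 endothelial markers, and its endothelial marker mean of 7.91 was the highest, against 6.40 in KO tumour 9. T cell markers stood at 7.13 in KO tumour 9 and 5.64 in WT tumour 8. The 3′ minus 5′ difference of the array's RNA control probe sets, a measure of degraded or shortened RNA, was 0.84 in KO tumour 9 and 0.97 in WT tumour 8, within a range of 0.71 to 1.17.

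Of the high tumours, WT tumour 3 had the highest epithelial marker mean (12.07) and the lowest marker means of all 10 tumours for macrophages (8.75), neutrophils (6.44), fibroblasts (9.42), smooth muscle (7.07) and endothelium (6.34). It was the lowest tumour for 5 of 6 macrophage and 5 of 7 smooth muscle markers. KO tumour 7 had an epithelial mean of 11.82 and was above the 10-tumour mean for 1 of 6 macrophage, 1 of 7 fibroblast, 1 of 7 smooth muscle and 2 of 7 endothelial markers, and for 5 of 6 T cell, 4 of 4 B and plasma cell and 3 of 3 neutrophil markers. The part of cell composition in the low and the high values was not tested.

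Mouse 04 gave 2 tumours, and its tumour 9 was lower than its tumour 11 for 23 of 23 S phase genes, by 0.82 on average, and for 20 of 20 mitotic genes, by 0.68. Over all genes tested, 44.9% were higher in tumour 9. Tumour 9 was also lower for 7 of 7 fibroblast markers (-0.35 on average), 7 of 7 endothelial markers (-0.46), 5 of 6 macrophage markers (-0.18), 5 of 7 smooth muscle markers and 4 of 4 B and plasma cell markers (-0.25), and higher for 3 of 3 neutrophil markers (0.63) and 8 of 11 epithelial markers (0.06). The part of these in the pair's difference was not tested. The difference between these tumours of 1 mouse was therefore larger than that between the KO and WT means for either list.

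S phase and mitotic genes did not always move together. After each gene was set to its own mean over the tumours, the S phase mean minus the mitotic mean was 0.40 in KO tumour 2 and 0.31 in WT tumour 8, and it was -0.27 in KO tumour 6 and -0.28 in WT tumour 12. In KO tumours 7, 9 and 11 it was 0.01, -0.11 and 0.02, and in WT tumours 1, 3 and 13 it was 0.07, -0.04 and -0.11. Each group thus held tumours with relatively more S phase signal and tumours with relatively more mitotic signal, and the groups differed by 0.02 on average against SDs of 0.25 in KO and 0.22 in WT (n = 5 each).

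**Figure D4:**
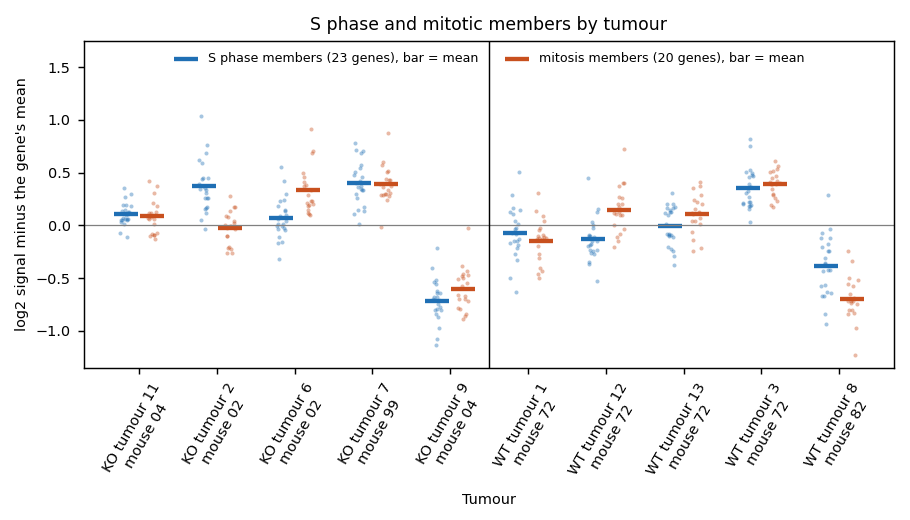
Log2 signal minus the gene's mean over the 10 tumours (vertical axis) for the 23 S phase genes (blue) and 20 mitotic genes (orange) in each tumour (horizontal axis); dots are genes and bars their mean. Both bars lie lowest in KO tumour 9 and WT tumour 8, and they part most in KO tumours 2 and 6 and in WT tumours 8 and 12.

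Mouse 02 showed the contrast within 1 animal. Its tumour 2 had the higher signal for 22 of 23 S phase genes, by 0.30 on average, while its tumour 6 had the higher signal for 19 of 20 mitotic genes, by 0.36 on average. Over all genes tested, 55.2% were higher in tumour 2. The exceptions were Tk1 in S phase, at 8.26 in tumour 2 against 8.44 in tumour 6, and Cdk1 in mitosis, at 8.98 against 8.94. Cdc6 had the largest difference of the S phase genes, 8.77 against 7.87 or 1.88-fold, followed by Prim1 at 9.68 against 9.05. Ccnb2 had the largest of the mitotic genes, 9.03 against 10.21 or 2.26-fold lower in tumour 2, followed by Nusap1 at 8.46 against 9.15. Each tumour is a single array, so the contrast has no replicate check.

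Further probe sets and genes on the same arrays were split in the same way between these tumours. Beyond the 43 probe sets used, 35 other probe sets of 26 of the genes passed the filter on low signal, and tumour 2 was above tumour 6 for 21 of 23 of S phase and for 0 of 12 of mitosis. Among 45 tested genes related to replication that are not in the list, 34 were higher in tumour 2, by 0.26 on average, and among 56 tested genes related to mitosis, 10 were. The tumours of mouse 02 also differed in other measures. Tumour 2 was higher for 7 of 7 fibroblast markers (10.52 against 9.87 on average), 7 of 7 endothelial markers (7.49 against 6.59), 5 of 7 smooth muscle markers (8.17 against 7.84) and 3 of 3 neutrophil markers (7.88 against 6.99). It was lower for 9 of 11 epithelial markers (11.45 against 11.72), 4 of 4 B and plasma cell markers (7.99 against 8.62) and 4 of 6 T cell markers (6.64 against 6.74). The 3′ minus 5′ difference was 1.17 in tumour 2, the highest of the 10 arrays, against 0.86. Their part in the contrast was not tested.

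The 4 tumours of WT mouse 72 gave 6 pairs. WT tumour 3 exceeded tumour 12 for 23 of 23 S phase and 16 of 20 mitotic genes, by 0.48 and 0.24, and it exceeded tumour 13 for 21 of 23 and 19 of 20, by 0.36 and 0.28. Over all genes tested, 51.2% and 50.1% were higher in tumour 3. Against tumour 12, tumour 3 was lower for 7 of 7 endothelial (-1.04 on average), 7 of 7 smooth muscle (-1.03), 6 of 7 fibroblast (-0.92) and 6 of 6 macrophage markers (-0.80), with an epithelial mean difference of 0.02. Against tumour 13 it was lower for 7 of 7 endothelial (-1.02), 6 of 7 smooth muscle (-0.71), 7 of 7 fibroblast (-1.25) and 6 of 6 macrophage markers (-0.88), and higher for 11 of 11 epithelial markers (0.94). The 3′ minus 5′ difference was 0.78 in tumour 3, 0.96 in tumour 12 and 1.14 in tumour 13. WT tumour 1 was above tumour 12 for 15 of 23 S phase genes but for only 2 of 20 mitotic genes, with mean differences of 0.06 and -0.29. In that pair 53.9% of all genes tested were higher in tumour 1, which was lower for 10 of 11 epithelial markers (-1.28) and 6 of 6 T cell markers (-0.56) and higher for 7 of 7 fibroblast markers (0.28). The pairs of WT tumours 1 and 3, 1 and 13, and 12 and 13 had S phase differences of -0.42, -0.07 and -0.13 and mitotic differences of -0.54, -0.25 and 0.04, and epithelial marker differences of -1.30, -0.35 and 0.93. The part of these markers in the pairs was not tested.

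**Figure D5:**
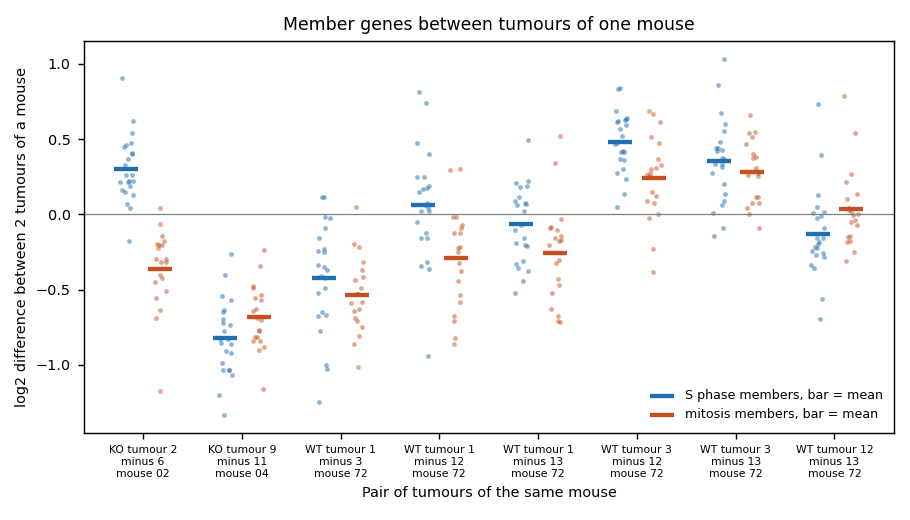
Difference in log2 signal between 2 tumours of the same mouse (vertical axis) for each S phase gene (blue dots) and each mitotic gene (orange dots), with bars at the mean, in the 8 pairs within a mouse (horizontal axis). S phase genes lie above and mitotic genes below 0 in the pair of mouse 02, and both lie below 0 for KO tumour 9 minus 11.

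Related genes outside the list were examined in 3 sets. Of 45 genes of replication tested, 1 was lower in KO tumours, against 2.93% of all genes tested, and 0 were higher. Of 56 genes of mitosis and of 20 E2F, Rb and DREAM regulators, 0 passed in either direction. At an unadjusted p under 0.05 the counts were 2 of 45, 2 of 56 and 3 of 20, against 22.4% of all genes tested. The single gene that passed was Orc1, the largest subunit of the origin recognition complex, which marks where the helicase is loaded. It had 6.43, 6.45, 6.53, 6.33 and 6.21 in KO and 6.89, 6.82, 6.82, 7.03 and 7.05 in WT tumours, and every KO value lay below every WT value. The means were 6.39 ± 0.12 in KO against 6.92 ± 0.11 in WT (SD, n = 5 each), with a difference of -0.53 ± 0.10 (SE; 95% interval -0.75 to -0.31; adjusted p = 0.0116), or 1.44-fold lower in KO. Orc1 did not pass with 1 mean per mouse (-0.47, adjusted p = 0.160), with the range of label numbers as a covariate (-0.46, adjusted p = 0.0558), with the mean of its probe sets (-0.53, adjusted p = 0.0724), without mouse 04 (-0.45, adjusted p = 0.0511) or without mouse 72 (-0.42, adjusted p = 0.343).

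Of the genes with the smallest p in each set, Cenpk, a kinetochore protein, had a difference of 0.60 ± 0.21 (SE; 95% interval 0.14 to 1.05; adjusted p = 0.117), and E2f2, an activator E2F, had a difference of 1.01 ± 0.45 (SE; 95% interval 0.02 to 2.00; adjusted p = 0.212). E2f2 was 8.00, 8.53, 9.49, 9.08 and 9.13 in KO and 6.82, 9.29, 7.78, 7.77 and 7.56 in WT tumours, with WT tumour 3 among the highest. Cenpk passed without KO tumour 9, without mouse 04 and without KO tumour 9 and WT tumour 8 together (adjusted p = 0.00251, 0.00702 and 0.00449), and E2f2 passed without WT tumour 3 (adjusted p = 0.0370). In the replication set the next were Ccne2, the cyclin E that starts S phase (0.41, adjusted p = 0.180), and Cdc25a, the phosphatase that activates its kinase (0.35, adjusted p = 0.242). In the mitosis set they were Cenpm, another kinetochore protein (0.52, adjusted p = 0.143), and Ckap5, a microtubule polymerase (-0.24, adjusted p = 0.300). Lin37, a subunit of the DREAM core, had a difference of 0.27 ± 0.10 (SE; 95% interval 0.04 to 0.50; adjusted p = 0.16). Rbl2, a pocket protein of the DREAM complex, had a difference of -0.29 ± 0.11 (SE; 95% interval -0.53 to -0.04; adjusted p = 0.153). Over the 20 regulators, KO tumour 9 was the lowest tumour for 5 and WT tumour 8 for 6, against 11.8% and 12% of all genes tested, and WT tumour 8 was the highest for 2. KO tumour 7 was the highest for 5 and WT tumour 3 for 4, against 10.3% and 10.9%, and each was the lowest for 1. The mean over the regulators ran from 7.86 in WT tumour 8 to 8.34 in WT tumour 3.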

How the data were processed

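The values are the authors' deposited log2 signals of 10 Affymetrix mouse genome arrays, 1 per tumour, made with RMA per the submitters' processing notes; its version and settings are not given in the sources used here. RMA subtracts background by model, gives all arrays the same distribution and summarises the probes of a set, so a shift shared by all genes cannot be seen and low signals are compressed. The depth of an array is not a count, and the number of arrays limits the precision.

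Of 45101 probe sets, 34945 had a single gene symbol in GEO's platform annotation, 932 several and 9160 none, and 64 were controls; 34741 were updated to current symbols through Entrez IDs and 204 kept the annotation's name. The brightest probe set stood for each of 18193 genes. A gene was tested if its mean reached log2 5.82, the 40th percentile over probe sets, which kept 12250 genes and all 43 analysed here. KO and WT tumours were compared with limma 3.58.1 in R 4.3.3 (lmFit and eBayes, with the mouse as a random block through duplicateCorrelation, consensus correlation 0.0586), Benjamini-Hochberg adjustment and a threshold of 0.05. A limma estimate weights tumours of 1 mouse together, so it can differ slightly from the difference of plain means, in sign too for Mcm3, Mcm10 and Rrm2, whose differences are near 0. The fit was tested on simulated data. Labels show separate tumours of 3 KO and 2 WT mice, so p-values rest mostly on the spread between tumours.

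List means, pair contrasts and promoter motifs are descriptions with no test. Tumour values are given for Mki67, Pcna, Mcm2, the 4 genes of each phase with the smallest p and the 2 with the widest range; of related sets, the 3 genes with the smallest p are given. Cdc6, Pola1, Rrm2, Aurka and Birc5 were added after their values were seen. The gene lists, related sets and comparisons were chosen with earlier results of these data known. Alternatives covered the mouse block, the label number range, the level filter, the choice of probe set, normalisation, the variance model, RNA quality and leaving out tumours and mice.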

Additional observations from a re-analysis of the deposited data

Results flagged for a closer look

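The lowest and the highest tumour were examined in 92 sets of 5 tumours (43 genes and 3 list means, in each group). In 8 sets 1 of them stood apart from the other 4 by more than 0.71 of the set's whole range. With both ends counted, chance does so in about 1 set in 20. In each of the 8 sets it was the lowest tumour that stood apart. KO tumour 9 was that tumour in 6 of them. It had 9.31 for Mcm4 (others 10.14 to 10.37), 7.35 for Rfc3 (8.01 to 8.06), 7.96 for Rfc4 (8.61 to 8.83), 7.47 for the nucleotide salvage kinase gene Tk1 (8.26 to 8.50), 6.60 for the checkpoint kinase gene Bub1 (7.40 to 7.59) and 7.21 for Aurkb (8.05 to 8.36). WT tumour 12 had 7.47 for Rfc3 against 8.17 to 8.31 in the other WT tumours. WT tumour 8 had 7.32 for Bub1b, a protein of the mitotic checkpoint complex, against 8.05 to 8.26. These genes are measured on the same arrays, so these 8 cases are not independent of each other. Without KO tumour 9, as without any other single tumour, 0 of the 43 genes passed the test between groups.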

How the results depend on the processing

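The count of 0 called among the 43 genes held under 26 of 27 alternatives; without mouse 04 it was 1 (Mcm6). Leaving out single tumours gave 0 each time. Over all genes tested, where 868 passed, the count was 388 with 1 mean per mouse, 577 with a level filter at the 60th percentile, 548 with the 3′ minus 5′ difference as a covariate, 548 without mouse 02, 467 without mouse 04 and 288 without mouse 72, and it ran from 472 to 921 when single tumours were left out. The 1 call among related genes (Orc1) became 0 with 1 mean per mouse, with the number range as a covariate, with the stricter filter (which removes Orc1), with the mean of all probe sets and without mouse 72. It became 2 without mouse 04, where Orc1 did not pass and Cenpk did. The count was 3 without KO tumour 9 and WT tumour 8 together, and ran from 1 to 3 over single tumours. The mitotic mean difference was 0.73 without mouse 72, which leaves WT tumour 8 as the only WT tumour. Over single tumours, Mki67 ran from -0.059 to 0.13 and Pcna from -0.015 to 0.17. Mki67 was -0.052 without mouse 02, -0.059 without mouse 82 and -0.047 without mouse 99, and Pcna was -0.015 without mouse 82. The difference of the S phase and mitotic means ran from -0.079 to 0.098 over single tumours. The contrast within mouse 02 kept its direction under 5 alternatives added after seeing the data, from 0.26 to 0.33 for S phase and from -0.39 to -0.31 for mitosis. No paired analysis was possible because KO and WT tumours come from different mice and share no numbers. Few mice, 2 of them WT, limit what can be said of the genotype.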
